A study of Mus musculus with 230 samples.

Results

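The genes described here are 40 rows of a count table of mouse sensory neurons that belong to the integrated stress response and the unfolded protein response. They were chosen by name, as listed members of both pathways, out of 53278 genes in the table. They comprise 4 stress sensors, 7 transcription factors, 2 regulatory subunits of the eIF2alpha phosphatase, 13 ATF4 targets, 10 chaperones and folding enzymes of the endoplasmic reticulum (ER), and 4 genes of ER-associated degradation. All 40 names were found in the table, and 39 had enough counts to be tested.

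RNA came from sensory neurons of the L4 and L5 dorsal root ganglia of C57BL/6 X CAST/Ei mice, either intact or after an injury of the sciatic nerve. Neurons were picked by hand, and the cytoplasm of each pick was made into SMART-seq2 libraries, a full-length cDNA method. There were 18 low-input libraries in 6 groups of 3 (injured and intact neurons at 1, 8 and 12 months of age), and 69 single cells (21 injured and 18 intact at 1 month, 22 injured and 8 intact at 1 year). The labels name no transgene or drug for any group. They give neither the time since injury nor the number of neurons in a low-input library. No label names the animals, so that p-values measure the spread between these libraries, which may be technical. The low-input libraries called 12 months here carry 1 year in part of their labels. All intact low-input libraries carry the letter l in their names and all injured ones the letter r. Whatever that letter stands for cannot be told apart from the condition.

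The low-input libraries held 7531967 to 19443627 counts of mouse genes, of which 770328 to 11587094 lay outside 1 dominant feature (CT010467.1), which took 29.4% to 93.8%. All 13 sensory neuron markers were detected in every library. The summed level of 9 satellite glia markers was 102.9 to 894 CPM (counts scaled to library size) in intact and 147 to 2153 CPM in injured libraries, that of 8 Schwann cell markers 205 to 870.5 and 311 to 550 CPM, that of 9 immune markers 0 to 32.5 and 1.95 to 11.9 CPM, and that of 9 vascular and fibroblast markers 0.435 to 90.3 and 31.9 to 68.2 CPM. At each age the dominant share was higher in all intact than in all injured libraries. It was 40.4% to 45.3% against 35.7% to 39.8% at 1 month. It was 65.7% to 68.2% against 41.6% to 59.7% at 8 months, and 64.2% to 93.8% against 29.4% to 39.04% at 12 months. Intact replicate 2 at 12 months stood furthest apart, with 93.8% of its counts on the dominant feature and the fewest counts outside it. Of these, 40.5% were on mitochondrial genes, against 1.19% to 3.55% in the other 17 libraries. Intact replicate 3 at 12 months had 80.9% on the dominant feature and 1789183 counts outside it. Counts of 4 Y-linked genes were 149 to 725 in each library at 1 and 8 months and 0 in each library at 12 months, so age and sex cannot be told apart in comparisons with 12 months. Levels are CPM scaled by TMM, which sets the bulk of genes equal between libraries. In such samples fewer cells of a type and less RNA per cell cannot be told apart.

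In the unfolded protein response, misfolded protein in the ER lumen draws the chaperone Hspa5 (BiP) away from 3 membrane sensors, PERK (gene Eif2ak3), IRE1alpha (Ern1) and ATF6. IRE1alpha splices the Xbp1 messenger RNA, and the cleaved form of ATF6 enters the nucleus; both routes raise genes for ER chaperones and for ER-associated degradation, which pulls misfolded proteins out of the ER for destruction. PERK phosphorylates the translation factor eIF2alpha, as do GCN2 (Eif2ak4, which senses a lack of amino acids) and other kinases; general translation falls, translation of Atf4 rises, and ATF4 raises genes for amino acid synthesis and import. Much of this regulation acts on translation, splicing, cleavage and phosphorylation, which counts per gene do not measure. In sensory neurons PERK signalling and its ATF4 and CHOP branch have been studied after axon injury.

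The promoters of these genes carry the sequence motifs that tie each branch to its factors, and they are shown for that reason. RefSeq promoters (build GRCm38.p6, 250 bases before to 50 after the start, 300 in all) were matched for 37 of the 40 genes. The ER stress element, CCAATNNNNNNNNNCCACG, bound by ATF6 and XBP1 with NF-Y, was searched on both strands and lay in 0.119% of 32851 promoters. It was found in 7 of the 37 genes, of which 6 are ER chaperones (Hspa5, Calr, Hsp90b1, Canx, Pdia6 and Dnajc3) and 1 is the degradation gene Syvn1. The matches, read 5′ to 3′ on the strand of the motif with both conserved ends in capitals and the spacer in lower case, were as follows, with 1 match on each strand in Hsp90b1.
Hspa5: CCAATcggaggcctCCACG
Calr: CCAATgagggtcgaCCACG
Hsp90b1: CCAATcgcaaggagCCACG
Hsp90b1: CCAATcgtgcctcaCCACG
Canx: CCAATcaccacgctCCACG
Pdia6: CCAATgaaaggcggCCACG
Dnajc3: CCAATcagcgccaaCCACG
Syvn1: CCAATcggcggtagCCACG

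The Hspa5 promoter (chr2:34771840-34772139, plus strand, GRCm38.p6) is printed whole because Hspa5 is the standard readout of ER stress. Capitals mark its ER stress element, whose first base lies 65 bases before the start.
Hspa5 promoter: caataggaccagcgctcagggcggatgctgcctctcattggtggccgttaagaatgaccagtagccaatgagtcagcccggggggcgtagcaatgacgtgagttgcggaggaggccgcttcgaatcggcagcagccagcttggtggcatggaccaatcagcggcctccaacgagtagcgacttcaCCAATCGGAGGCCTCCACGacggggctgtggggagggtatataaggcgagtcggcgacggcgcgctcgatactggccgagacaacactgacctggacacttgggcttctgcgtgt

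The ATF4 and C/EBP composite element, TGATGNAA, lay in 3.97% of all promoters and in 7 of the 37 genes. Of these 5 are listed as ATF4 targets (Asns, Chac1, Slc7a11, Trib3 and Vldlr), and the others are the transcription factor Nupr1 and the degradation gene Herpud1. Slc7a11 held 1 match on each strand. Capitals again mark the conserved letters.
Chac1: TGATGcAA
Trib3: TGATGtAA
Slc7a11: TGATGcAA
Slc7a11: TGATGcAA
Asns: TGATGaAA
Nupr1: TGATGcAA
Herpud1: TGATGcAA
Vldlr: TGATGcAA

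Herpud1 was also the only member with the second form of the ER stress element, ATTGGNCCACG, found in 0.0365% of all promoters. Its match was ATTGGgCCACG. The UPR element TGACGTGG, found in 0.676% of all promoters, was in none of the 37 genes. Known sites of this kind are part of what these genes are known for, so the matches describe the list and are no test of it.

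In the low-input libraries the ER chaperones spanned a wide range of levels, and all 4 sensors had lower means than any chaperone. Levels were compared between genes as CPM per kb of exon, as mean ± SD over 9 intact libraries. Pdia3, a disulfide isomerase that works on glycoproteins, was at 33.3 ± 9.51, Hspa5 at 22.6 ± 8.34, and Canx, the membrane lectin calnexin, at 22.2 ± 6.91 CPM per kb. These were the 3 highest chaperones, and their levels overlapped within their SD. The lowest were Pdia4 at 6.55 ± 2.49, Sdf2l1 at 5.52 ± 3.08 and Dnajc3 at 4.90 ± 2.90 CPM per kb, with overlapping SDs. Among ATF4 targets Asns, which makes asparagine, was highest at 36.7 ± 15.5 CPM per kb, close to Pdia3 and within its spread. The transcription factors Atf4, Ddit3 and Xbp1 lay at 17.4 ± 6.67, 13.9 ± 4.73 and 13.5 ± 6.05 CPM per kb, which also overlap. The sensors Eif2ak3 and Atf6 lay near each other at 1.71 ± 1.31 and 1.59 ± 0.488 CPM per kb, and Eif2ak4 and Ern1 at 0.479 ± 0.313 and 0.317 ± 0.229 CPM per kb. Within its SD Eif2ak3 overlapped Eif2ak4 and Ern1 below it and Dnajc3 and Sdf2l1 above it. At the low end, Slc7a11, the cystine transporter, had 0 counts in all 9 intact libraries.

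**Figure D1:**
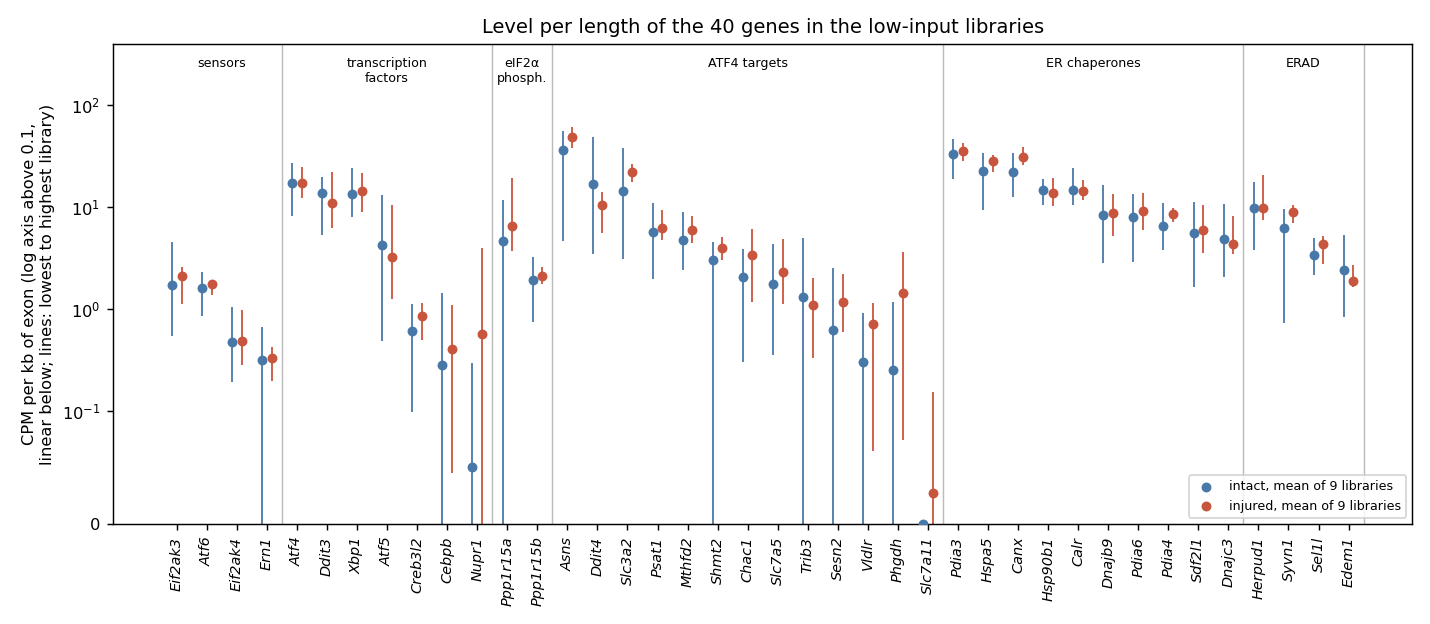
Mean CPM per kb of exon of each of the 40 genes in 9 intact and 9 injured low-input libraries, grouped by role on the horizontal axis, with lines from the lowest to the highest library and a log axis above 0.1. In intact libraries Asns and Pdia3 are the highest, at 36.7 and 33.3 CPM per kb, and Slc7a11 is at 0.

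The comparison of injured with intact neurons asks whether nerve injury moves these pathways at the transcript level. Averaged over the 3 ages, 0 of 39 members were called by edgeR at an adjusted p below 0.05, against 6.18% of all 14212 genes tested. At an unadjusted p below 0.05 there were 8 members (20.5%), and 20.3% of all genes. DESeq2 called 1 member, Phgdh, and 10.9% of all genes, and limma-voom 1, Sesn2, and 8.75%. The estimates lay above 0 for 28 members and below 0 for 11, with a median log2 change of 0.19 beside 0.03 over all genes tested. The median was 0.42 over 12 ATF4 targets and 0.09 over 10 ER chaperones. For all 10 ER chaperones the 95% interval lay within a 2-fold change in either direction, and so it did for 4 of 12 ATF4 targets and 24 of 39 members. With a covariate for the dominant feature's share both medians were lower, at 0.17 for ATF4 targets and -0.055 for ER chaperones. Scaling to spike-in totals moved the all-gene median by 2.90 (log2) and placed all 39 members above 0, so every direction given here is relative to the bulk of genes.

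**Figure D2:**
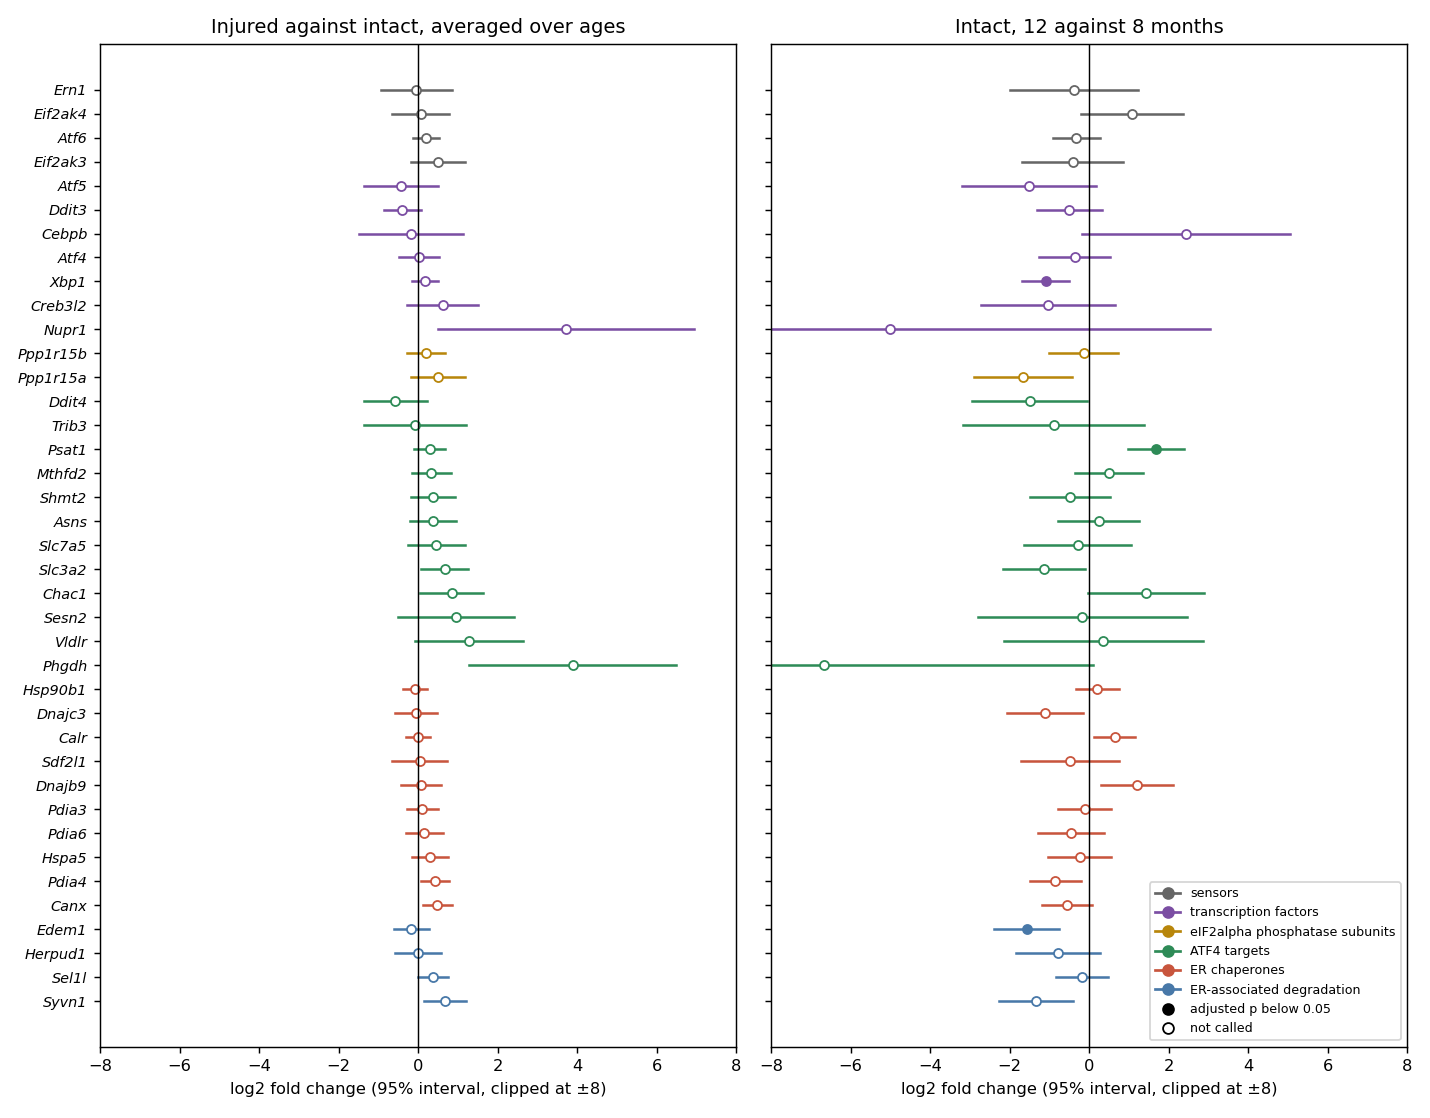
Log2 fold change of the 39 genes tested, with 95% intervals, in injured against intact libraries averaged over ages (left) and in intact libraries at 12 against 8 months (right), coloured by role, with filled points for an adjusted p below 0.05. No point is filled on the left, and Xbp1, Psat1 and Edem1 are filled on the right.

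Of the sensors, Eif2ak3 (chromosome 6, 70844515 to 70905245, GRCm38) encodes PERK. Its level in intact libraries was 4.95, 6.49 and 6.17 CPM at 1 month, then 6.39, 13.8 and 18.3 at 8 months, then 6.16, 27.1 and 3.26 at 12 months. In injured libraries it was 14.9, 6.67 and 13.9 CPM at 1 month, then 15.3, 15.4 and 9.90 at 8 months, then 12.2, 13.4 and 13.3 at 12 months. All 3 injured libraries at 1 month lay above the intact ones, while at 8 and 12 months the intact libraries spread on both sides of the injured ones. The averaged comparison gave a log2 change of 0.50 ± 0.33 (SE; 95% interval -0.19 to 1.19; edgeR adjusted p = 0.421). With intact replicate 2 at 12 months left out, which was the highest of all 18 libraries for Eif2ak3, Eif2ak3 was the only member called (edgeR log2 0.84, adjusted p = 0.037). That fit called 9.92% of all genes.

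Ern1 (chromosome 11, 106394650 to 106487852) encodes the sensor and RNase IRE1alpha and had few counts. It was at 0.600, 2.46 and 3.63 CPM in intact and 3.15, 1.60 and 1.68 in injured libraries at 1 month. At 8 months the levels were 3.30, 2.27 and 4.76 against 3.33, 2.92 and 3.48 CPM, and at 12 months 5.39, 0 and 0.869 against 2.51, 2.64 and 2.91 CPM. The groups overlapped at every age, with a log2 change of -0.04 ± 0.43 (SE; 95% interval -0.94 to 0.85; edgeR adjusted p = 0.976). The estimate for Ern1 lay so near 0 that its sign depended on which library was left out.

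Atf6 (chromosome 1, 170704674 to 170867771), the sensor that is cleaved to a transcription factor, varied little between injured libraries. Intact and injured libraries had 20.5, 17.2 and 21.5 against 16.3, 17.8 and 17.8 CPM at 1 month, and 11.1, 14.3 and 15.3 against 16.7, 17.2 and 15.8 CPM at 8 months. At 12 months they had 13.6, 10.8 and 7.82 against 16.9, 12.6 and 15.4 CPM. The groups were apart only at 8 months, where the injured libraries were higher. The averaged comparison gave a log2 change of 0.19 ± 0.16 (SE; 95% interval -0.14 to 0.52; edgeR adjusted p = 0.54). Eif2ak4, the amino acid sensor GCN2, was at 3.57 ± 2.34 in intact and 3.64 ± 1.61 CPM in injured libraries (SD, n = 9).

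Atf4 (chromosome 15, 80255184 to 80257540) is the central transcription factor of the integrated stress response and is controlled mainly by translation. Intact libraries had 23.5, 31.8 and 34.3 CPM at 1 month, then 14.1, 47.2 and 37.6 at 8 months, then 24.6, 41.5 and 15 at 12 months. Injured libraries had 29.2, 21.2 and 29.7 CPM at 1 month, then 42.6, 22 and 28.5 at 8 months, then 31.6, 38 and 25.8 at 12 months. The groups overlapped at each age, and the averaged comparison gave a log2 change of 0.02 ± 0.24 (SE; 95% interval -0.48 to 0.52; edgeR adjusted p = 0.98). The 95% interval puts the change of Atf4 messenger RNA, averaged over ages and relative to the bulk of genes, at less than 1.5-fold in either direction. It does not bound a change at a single age.

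Ddit3 (chromosome 10, 127290774 to 127296288) encodes CHOP, a factor of prolonged ER stress. Its levels were 29.6, 18.1 and 24.5 in intact and 14.4, 16.5 and 15.6 CPM in injured libraries at 1 month, where every injured library was below every intact one. At 8 months they were 33.5, 19.6 and 32.1 against 37.8, 18.4 and 21.8 CPM, and at 12 months 18.4, 9.03 and 29.3 against 13.6, 10.7 and 20.1 CPM, with overlap at both ages. The first injured replicate at 8 months held the highest value of all 18 libraries. The averaged estimate was a log2 change of -0.40 ± 0.22 (SE; 95% interval -0.86 to 0.06; edgeR adjusted p = 0.329).

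Xbp1 (chromosome 11, 5520659 to 5525893) encodes the factor that IRE1alpha activates by splicing, and the counts do not separate the spliced from the unspliced form. Intact libraries had 25.7, 32.9 and 40.1 CPM at 1 month, then 50.6, 73.1 and 78.3 at 8 months, then 37.7, 28.9 and 27.2 at 12 months. Injured libraries had 40.1, 29.3 and 42.6 CPM at 1 month, then 69.8, 53.3 and 46.9 at 8 months, then 46.6, 44.1 and 47.7 at 12 months. At 12 months all injured libraries lay above the intact ones, and at 1 and 8 months the groups overlapped. Averaged over ages there was a log2 change of 0.16 ± 0.16 (SE; 95% interval -0.17 to 0.49; edgeR adjusted p = 0.613).

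The other transcription factors were Atf5, Creb3l2, Nupr1 and Cebpb. Atf5 was at 8.54 ± 7.92 in intact and 6.42 ± 5.64 CPM in injured libraries, and Creb3l2, a membrane-bound factor of the ATF6 type, at 4.45 ± 2.95 and 6.27 ± 1.41 CPM (SD, n = 9). Nupr1, a small stress-induced chromatin protein, had 0 counts in intact libraries at 12 months and 0, 10.02 and 0.0729 CPM in injured ones, with nearly all counts at that age in the second injured replicate. Cebpb stayed at or below 2.14 CPM in every library. None of these 4 was called (edgeR adjusted p = 0.171 for Nupr1, 0.451 for Creb3l2, 0.629 for Atf5 and 0.918 for Cebpb). Exons of Cebpb overlapped those of another gene over 20.7% of their length, so its counts are uncertain.

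Both phosphatase subunits bring protein phosphatase 1 to eIF2alpha and so end the response. The stress-induced Ppp1r15a (GADD34) was at 13.5 ± 9.56 in intact and 19 ± 14.2 CPM in injured libraries, with a log2 change of 0.50 ± 0.32 (SE; 95% interval -0.18 to 1.17; edgeR adjusted p = 0.416). The constitutive Ppp1r15b was at 10.7 ± 4.09 and 11.8 ± 1.49 CPM (SD, n = 9; edgeR adjusted p = 0.695).

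The ATF4 targets had the widest range of estimates, from -0.57 for Ddit4, an inhibitor of mTORC1, to 3.88 for Phgdh, and 10 of 12 lay above 0. The estimate for Phgdh rests in part on a group with 0 counts, as given below. Asns, asparagine synthetase, was at 100.3 ± 42.3 in intact and 133 ± 26.6 CPM in injured libraries, with a log2 change of 0.37 ± 0.28 (SE; 95% interval -0.21 to 0.96; edgeR adjusted p = 0.491). Slc3a2, the shared heavy chain of amino acid exchangers, was at 51.2 ± 34.8 and 77.8 ± 11.9 CPM, with a log2 change of 0.66 ± 0.28 (SE; 95% interval 0.08 to 1.24; edgeR adjusted p = 0.177). Its partner Slc7a5 was at 6.47 ± 4.31 and 8.50 ± 4.13 CPM. Chac1, which degrades glutathione, was at 3.34 ± 1.83 and 5.60 ± 2.67 CPM, with a log2 change of 0.84 ± 0.38 (SE; 95% interval 0.05 to 1.64; edgeR adjusted p = 0.218). The injured means of Asns, Slc3a2, Slc7a5 and Chac1 were above the intact ones, but none of these genes passed the test. With intact replicate 2 at 8 months left out, Slc3a2 was called together with Phgdh (edgeR log2 0.98, adjusted p = 0.0133 for Slc3a2 and 6.12, adjusted p = 0.00795 for Phgdh). That fit called 7.12% of all genes.

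Serine and one-carbon enzymes form a group among the ATF4 targets. Psat1 and Phgdh make serine, Shmt2 turns serine into glycine in mitochondria, and Mthfd2 oxidises the folate unit that this yields. Psat1 was at 24.1 ± 13.5 in intact and 26.7 ± 6.39 CPM in injured libraries, Shmt2 at 9.35 ± 4.30 and 12.4 ± 2.44 CPM, and Mthfd2 at 16.6 ± 7.03 and 20.9 ± 4.35 CPM (SD, n = 9). Phgdh stood out with 0, 0.923 and 1.79 in intact and 5.38, 8.97 and 5.48 CPM in injured libraries at 1 month. At 8 months it had 0, 2.92 and 0 against 0.185, 2.15 and 5.19 CPM. At 12 months it had 0 counts in all intact libraries and 1.00, 2.05 and 1.75 CPM in injured ones, at least 9.01-fold higher with the floor set at 3 counts for the group. Injured and intact libraries did not overlap at 1 and 12 months. The averaged estimate was a log2 change of 3.88 ± 1.22 (SE; 95% interval 1.28 to 6.49; edgeR adjusted p = 0.0756), and DESeq2 called it (log2 2.94, adjusted p = 0.0239), as did edgeR with injured replicate 1 at 8 months left out (log2 4.07, adjusted p = 0.0472). The last of these fits called 7.37% of all genes. The 12-month estimate within the average (edgeR log2 7.41) rests on an intact group with 0 counts, so the size of the average is uncertain.

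Satellite glia markers were also higher in all injured than in all intact libraries at 1 month, and their ranges overlapped at 8 and 12 months. All 9 markers were detected in injured libraries at each age, and their sum was 1372 to 2153 CPM in injured and 154 to 672 CPM in intact libraries at 1 month, 402 to 754 and 108 to 552 CPM at 8 months, and 147 to 497 and 102.9 to 894 CPM at 12 months, where Cdh19 was at 0 in intact libraries. Vascular and fibroblast markers were higher in injured libraries without overlap at 1 month (31.9 to 68.2 against 7.55 to 12.8 CPM in sum) and at 8 months (50.2 to 59.6 against 6.49 to 38.4 CPM), with Cldn5 at 0 in both groups at both ages. Immune markers were so at 8 months (5.73 to 10.3 against 0 to 3.94 CPM, with Aif1, C1qa, Cx3cr1 and Cd3e at 0 in intact libraries). The part of these cell types in the level of Phgdh and of the other members was not tested. The table also holds a pseudogene of Phgdh, which could share reads with it.

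The other ATF4 targets, apart from Ddit4, had few counts. Sesn2, a leucine-sensing inhibitor of mTORC1, was at 2.18 ± 2.75 in intact and 4.10 ± 1.79 CPM in injured libraries. It was called by limma-voom (log2 2.20, adjusted p = 0.0382) and by edgeR with intact replicate 1 at 8 months left out (log2 3.73, adjusted p = 3.77e-04). Those fits called 8.75% and 7.80% of all genes. Vldlr, a lipoprotein receptor, was at 3.01 ± 2.79 and 7.21 ± 3.25 CPM, with a log2 change of 1.29 ± 0.64 (SE; 95% interval -0.07 to 2.64; edgeR adjusted p = 0.274). Trib3, a pseudokinase that damps ATF4, was at 2.80 ± 3.57 and 2.33 ± 1.16 CPM, and Ddit4 at 29.6 ± 25.4 and 18.2 ± 5.11 CPM. Slc7a11 did not pass the filter on low counts. It had 0 counts in each intact library and 0.439, 2.11 and 0.291 CPM in injured libraries at 12 months, at least 5.65-fold higher against the floor of 3 counts. Without that filter 4 members were called by edgeR, all with higher estimates in injured libraries, namely Slc7a11, Phgdh, Nupr1 and Vldlr (adjusted p = 0.0169, 2.31e-05, 0.0048 and 0.0177), and 6.04% of 28520 genes were called.

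Hspa5 (chromosome 2, 34771970 to 34777547) encodes BiP, the main chaperone of the ER lumen. Intact libraries had 84.3, 110.1 and 106 CPM at 1 month, then 56.4, 139 and 112 at 8 months, then 142, 39.7 and 72.4 at 12 months. Injured libraries had 94.1, 104 and 129 CPM at 1 month, then 127, 125 and 117 at 8 months, then 133, 107 and 138 at 12 months. The groups overlapped at all ages, and the intact libraries at 8 and 12 months spread over a wider range than the injured ones. The averaged comparison gave a log2 change of 0.31 ± 0.22 (SE; 95% interval -0.14 to 0.76; edgeR adjusted p = 0.457). With that covariate for the dominant feature's share the sign of the Hspa5 estimate was reversed, at -0.37.

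Among the other 9 ER chaperones the estimates ranged from -0.08 for Hsp90b1 (GRP94) to 0.48 for Canx. Canx was at 59.6, 114 and 134 in intact and 125, 126 and 121 CPM in injured libraries at 1 month, with overlap. At 8 months it was at 104, 110.4 and 159.9 against 147, 133 and 138 CPM, and at 12 months at 111, 65 and 77.4 against 182, 159.9 and 176 CPM, where all injured libraries were higher. Averaged over ages it gave a log2 change of 0.48 ± 0.17 (SE; 95% interval 0.13 to 0.84; edgeR adjusted p = 0.103). Pdia4, a disulfide isomerase, gave a log2 change of 0.43 ± 0.17 (SE; 95% interval 0.07 to 0.78; edgeR adjusted p = 0.151). Calr, the soluble lectin calreticulin that shares its clients with Canx, was level on average, at 42.1 ± 12.8 and 41 ± 5.91 CPM (edgeR log2 -0.01 ± 0.14). Pdia3, Pdia6, Dnajb9, Dnajc3, Sdf2l1 and Hsp90b1 had estimates between -0.08 and 0.16 and none was called. A pseudogene of Calr is in the table, and 15.7% of the exon length of Hsp90b1 overlaps other genes, so both counts are uncertain.

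In ER-associated degradation, Sel1l and Syvn1 form the ubiquitin ligase complex of the ER membrane, Herpud1 recruits it, and Edem1 marks glycoproteins for it. Syvn1 was at 45, 42.2 and 45.6 in intact and 44.2, 49.2 and 45.6 CPM in injured libraries at 1 month, which overlapped. At 8 months it was at 32.7, 34.1 and 31.9 against 45.5, 50.4 and 44.2 CPM, and at 12 months at 25.2, 7.22 and 3.48 against 33.7, 37.5 and 36 CPM, with all injured libraries higher at both ages. The averaged estimate was a log2 change of 0.68 ± 0.25 (SE; 95% interval 0.16 to 1.20; edgeR adjusted p = 0.118). With intact replicate 1 at 12 months left out, the highest of its group for Syvn1, Syvn1 was the only member called (edgeR log2 1.19, adjusted p = 2.86e-04). That fit called 7.11% of all genes. Sel1l was at 28.9 ± 6.57 and 37.4 ± 6.40 CPM, with a log2 change of 0.38 ± 0.18 (SE; 95% interval 0.00 to 0.75; edgeR adjusted p = 0.24). Herpud1 was at 22.7 ± 11.7 and 22.9 ± 9.83 CPM, and Edem1 at 15.6 ± 8.92 and 12.3 ± 2.05 CPM (SD, n = 9).

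**Figure D3:**
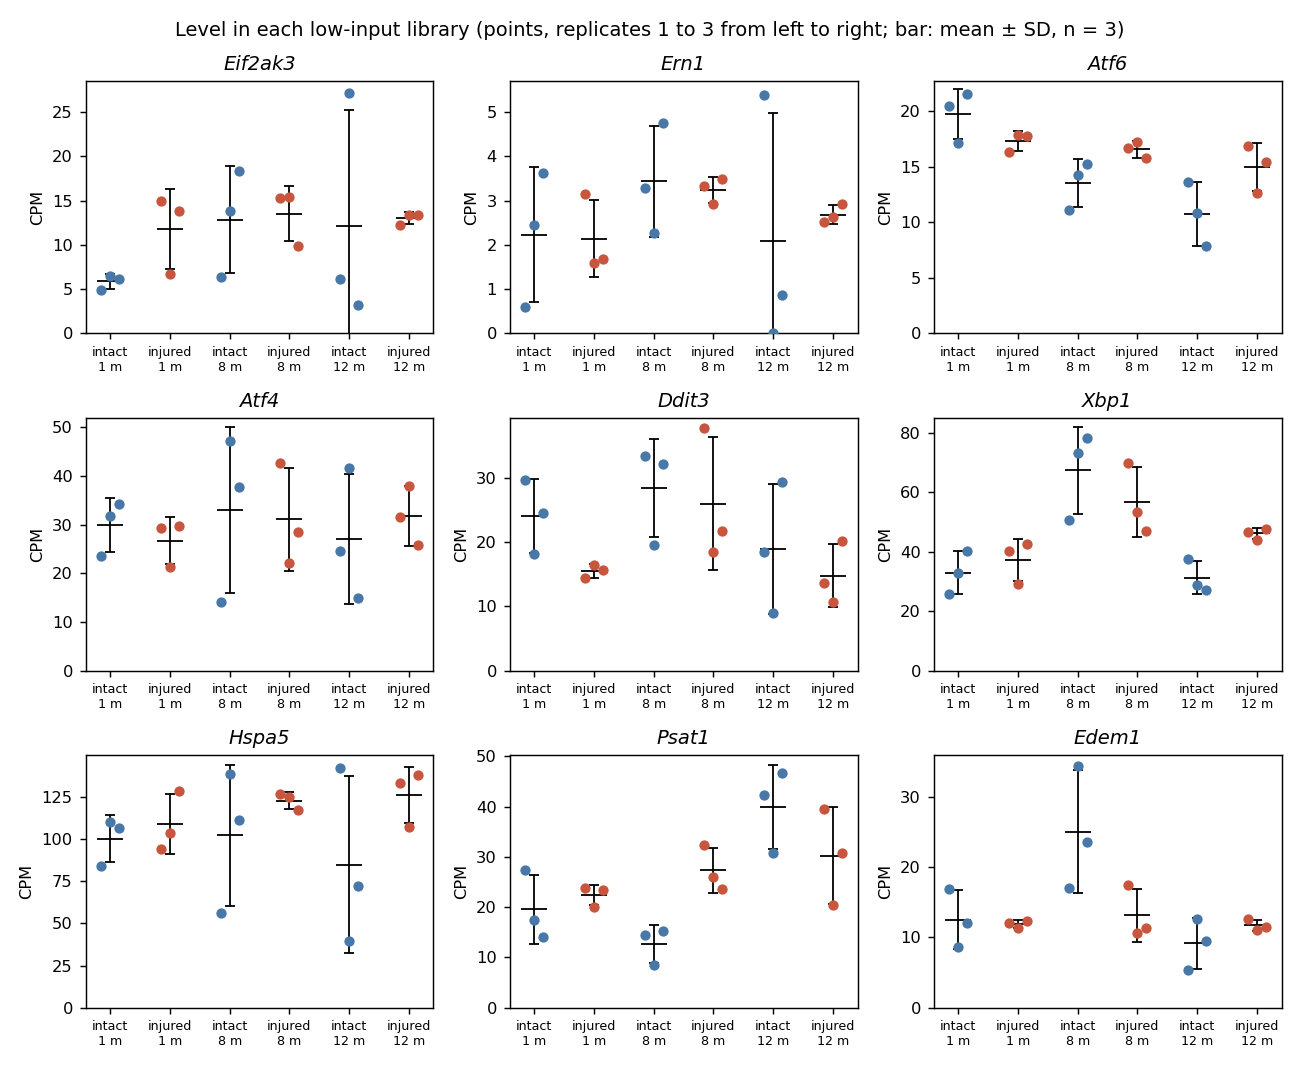
CPM of the 3 ER sensors, Atf4, Ddit3, Xbp1, Hspa5, Psat1 and Edem1 in each of the 18 low-input libraries, with points for replicates and bars for mean ± SD (n = 3). Xbp1 and Edem1 are highest in intact libraries at 8 months, where Psat1 is lowest, and intact replicates spread more widely than injured ones at 8 and 12 months for Atf4 and Hspa5.

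Further genes of both pathways were examined as context. Of 45 other genes of the integrated stress response, 41 were tested and 3 were called, all higher in injured libraries. Atf3, a stress factor that is also a standard marker of nerve injury, rose from 5.21 ± 5.57 to 299.6 ± 144 CPM (log2 5.76 ± 0.56, edgeR adjusted p = 1.81e-05). Slc1a4, a neutral amino acid transporter, rose from 20.7 ± 17.3 to 55 ± 19.8 CPM (log2 1.72 ± 0.27, edgeR adjusted p = 0.00101). Eprs, a transfer RNA synthetase, rose from 54.8 ± 15.2 to 80.3 ± 12.3 CPM (log2 0.56 ± 0.15, edgeR adjusted p = 0.0365). Of 42 other genes of the unfolded protein response, 40 were tested and 2 were called. P4hb, a protein disulfide isomerase, rose from 54.4 ± 23.4 to 90.5 ± 10.4 CPM (log2 0.78 ± 0.22, edgeR adjusted p = 0.0414). Fkbp2, an ER prolyl isomerase, fell from 76.4 ± 22.7 to 51.9 ± 12.5 CPM (log2 -0.54 ± 0.15, edgeR adjusted p = 0.0393). The shares called, 3 of 41 and 2 of 40, stand beside the 6.18% of all genes called.

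At single ages no member was called by edgeR either. At 1 month 0 of 39 members were called against 0.232% of all genes, with 0 at an unadjusted p below 0.05 (4.50% of all genes). DESeq2 and limma-voom called 0 members, and 0.865% and 0.633% of all genes. At 8 months the count was 0 against 0.957%, with 3 members (7.69%) at an unadjusted p below 0.05, beside 12.2% of all genes. DESeq2 called 1 member, Psat1 (log2 1.07, adjusted p = 0.0362), and 3.75% of all genes, and limma-voom 0 and 0.0211%. Psat1 at that age was at 14.4, 8.43 and 15.2 in intact and 32.4, 26 and 23.7 CPM in injured libraries, which did not overlap (edgeR log2 1.11 ± 0.33, adjusted p = 0.129). At 12 months it was 0 against 2.99%, with 7 members (17.9%) at an unadjusted p below 0.05, beside 18.6% of all genes. DESeq2 called 2 of them, Canx and Syvn1 (log2 0.94, adjusted p = 0.021 for Canx and 1.41, adjusted p = 0.0244 for Syvn1), and 8.71% of all genes, while limma-voom called 0 members and 3.37% of all genes. The edgeR values were 1.02 ± 0.30 for Canx (adjusted p = 0.0737) and 1.46 ± 0.44 for Syvn1 (adjusted p = 0.0874).

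Separation of the raw levels was counted at each age. At 1 month 9 members had all injured libraries above all intact ones and 1 (Ddit3) had all below, 10 of 39 in all, against 17.8% of all genes. At 8 months 5 members were higher without overlap (Atf6, Asns, Psat1, Calr and Syvn1), against 14.3%. At 12 months 10 were higher and 1 (Calr) was lower, 11 of 39, against 25.9%. These 10 were Xbp1, Ppp1r15a, Asns, Phgdh, Slc3a2, Vldlr, Canx, Pdia4, Sel1l and Syvn1. No member was apart in 1 direction at all 3 ages, as 260 higher and 17 lower genes of 14212 were. Calr, with 37.4, 37.4 and 30.1 in intact and 45.8, 43.6 and 52.6 CPM in injured libraries at 8 months, was lower in injured libraries at 12 months (55.6, 70.4 and 40.4 against 37.4, 35.1 and 38.3 CPM).

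Whether the effect of injury depended on age was tested jointly over the 3 ages, and 0 of 39 members and 0% of all genes were called by edgeR. There were 3 members at an unadjusted p below 0.05, beside 8.17% of all genes. DESeq2 and limma-voom called 0 members, and 1.46% and 0.0422% of all genes. These 3 were Psat1 (edgeR adjusted p = 0.473), Calr (0.525) and Edem1 (0.595). Psat1 had log2 changes of 0.20, 1.11 and -0.42 with injury at 1, 8 and 12 months. Calr had 0.11, 0.44 and -0.57, and Edem1 -0.07, -0.93 and 0.47. The estimates of these genes differed in sign between ages, and the differences did not pass the test over all genes. With intact replicate 1 at 12 months left out, Syvn1 was called in this test (edgeR adjusted p = 0.0224), with 0.136% of all genes.

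Among comparisons of age, members were called only in intact neurons between 8 and 12 months, where 3 of 39 passed against 6.69% of all genes. Psat1 (chromosome 19, 15904678 to 15947337) rose, from 14.4, 8.43 and 15.2 CPM at 8 months to 42.4, 30.7 and 46.7 CPM at 12 months, with a log2 change of 1.68 ± 0.33 (SE; 95% interval 0.97 to 2.38; edgeR adjusted p = 0.0114). Xbp1 fell, from 50.6, 73.1 and 78.3 to 37.7, 28.9 and 27.2 CPM, with a log2 change of -1.10 ± 0.28 (SE; 95% interval -1.68 to -0.51; edgeR adjusted p = 0.0269). Edem1 (chromosome 6, 108828641 to 108859356), a target of XBP1, fell from 17.1, 34.5 and 23.7 to 5.39, 12.6 and 9.56 CPM, with a log2 change of -1.57 ± 0.39 (SE; 95% interval -2.38 to -0.75; edgeR adjusted p = 0.0258). For each of these genes the 3 libraries of 1 age lay wholly above those of the other. The genes were picked by the test on these same libraries, so their separation adds nothing to it. The share of all genes separated in this way was not counted. The median log2 change of all 39 members was -0.41, beside -0.02 over all genes, and 29 lay below 0.

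These counts moved with the tool and with single libraries, and so did the share of all genes called. DESeq2 called 7 members and 15.6% of all genes. Neither limma-voom nor a fit of the 6 libraries alone called any gene (0% of all genes tested in each). The calls of Psat1, Xbp1 and Edem1 were thus lost in both fits, as was every other call. With intact replicate 2 at 8 months left out only Psat1 was called, with 2.63% of all genes. With intact replicate 2 at 12 months left out 6 members were called (Asns, Ddit4 and Dnajb9 beside the 3), with 14.3% of all genes. With intact replicate 3 at 8 months left out 5 were called (Psat1, Edem1, Pdia4, Ppp1r15a and Ddit4, but not Xbp1), with 9.69% of all genes. With intact replicate 3 at 12 months left out 2 were called, Psat1 and Edem1, with 5.001% of all genes. With intact replicate 1 at 12 months left out 3 were called, with Syvn1 in place of Edem1, and 5.93% of all genes. Psat1 was called in each fit that left out 1 library. Scaled to spike-in totals, 2 members were called, Phgdh and Edem1, and Psat1 had a log2 change of -0.12, against a median of all genes of -2.17. Intact libraries at 8 and 12 months also differed in Schwann cell markers (444 to 870.5 and 205 to 399 CPM in sum, with Mag and Pllp at 0 at 12 months), and in the mitochondrial share outside the dominant feature (1.19% to 1.32% and 2.999% to 40.5%, without overlap). The part of both in the result was not tested. They differed in sex as given above. In injured libraries of the same ages Psat1 was at 32.4, 26 and 23.7 against 39.6, 20.5 and 30.7 CPM, Xbp1 at 69.8, 53.3 and 46.9 against 46.6, 44.1 and 47.7 CPM, and Edem1 at 17.5, 10.7 and 11.3 against 12.6, 11.1 and 11.5 CPM. None of the 3 was called there (edgeR adjusted p = 0.9998 for each), and the difference from the intact comparison was tested only in the joint test of injury by age above.

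The other 5 comparisons of age called 0 members by edgeR. Between 1 and 8 months in intact neurons 0.922% of all genes were called. At an unadjusted p below 0.05 there were 6 members (15.4%), beside 16.2% of all genes. The smallest p values were those of Xbp1 (log2 1.03 ± 0.27, edgeR adjusted p = 0.076), Edem1 (1.00 ± 0.36, adjusted p = 0.173) and Dnajc3 (1.17 ± 0.43, adjusted p = 0.184). DESeq2 called Xbp1 and limma-voom 0, with 5.92% and 0.274% of all genes. Edem1 was at 16.9, 8.58 and 12.1 CPM at 1 month, below all libraries at 8 months given above, and so was Xbp1. Dnajc3, a co-chaperone of BiP, was at 10.5, 18.5 and 23 CPM at 1 month and 18.4, 55 and 43.4 CPM at 8 months. Both comparisons of Xbp1 and Edem1 share the 8-month intact libraries. Between 1 and 12 months in intact neurons 0.246% of all genes were called. Here 5 members (12.8%) had an unadjusted p below 0.05, beside 10.7% of all genes. They were led by Syvn1 (log2 -1.77 ± 0.45, edgeR adjusted p = 0.136), Psat1 (1.05 ± 0.33, adjusted p = 0.235) and Atf6 (-0.87 ± 0.28, adjusted p = 0.251). DESeq2 called Syvn1 and Psat1, and limma-voom 0, with 1.89% and 0.0915% of all genes. Psat1 was at 27.3, 17.4 and 14 CPM at 1 month, below all 3 libraries at 12 months. The values of Syvn1 and Atf6, given above, were also apart, with all libraries at 12 months lower. For comparisons of age the share of all genes without overlap was not counted, and these members were picked by their p.

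In injured neurons 0.225% of all genes were called for 8 against 1 month, 0.113% for 12 against 1 month and 0.0633% for 12 against 8 months. Between 1 and 8 months 4 members (10.3%) had an unadjusted p below 0.05, beside 4.99% of all genes. They were led by Cebpb (log2 -4.04 ± 1.30, edgeR adjusted p = 0.54), Ppp1r15a (1.27 ± 0.55, adjusted p = 0.932) and Xbp1 (0.60 ± 0.27, adjusted p = 0.938). Cebpb had 3 counts over the 8-month group, and the ratio of 1 to 8 months was 18.3 with a counting interval of 5.98 to 91.5. Its levels were 1.63, 0.962 and 1.59 CPM at 1 month, then 0.0925, 0.0694 and 0.0683 at 8 months, then 0.314, 0.527 and 0.219 at 12 months in injured libraries. Those of Ppp1r15a were 14.5, 11.7 and 10.8, then 56.5, 16.7 and 15.8, then 14.4, 14.1 and 16.6 CPM, with 1 high replicate at 8 months. DESeq2 called 0 and limma-voom 1, Cebpb, with 0.837% and 3.04% of all genes. Between 1 and 12 months 0 members had an unadjusted p below 0.05, beside 3.86% of all genes. The smallest p values were those of Cebpb, Nupr1 and Canx (edgeR adjusted p = 0.9999 each). Nupr1 was at 0.363, 0 and 0.707 CPM at 1 month in injured libraries, against the values at 12 months above. DESeq2 called 0 and limma-voom 2, Cebpb and Phgdh, with 0.387% and 6.71% of all genes. An edgeR fit of these 6 libraries alone called 3 members, Phgdh, Asns and Ddit4, with 4.56% of all genes. Between 8 and 12 months 1 member (2.56%), Ddit3, had an unadjusted p below 0.05 (log2 -0.81 ± 0.38, edgeR adjusted p = 0.9998), beside 4.29% of all genes. Next were Ppp1r15a (-0.98 ± 0.54) and Dnajb9 (0.75 ± 0.42). DESeq2 and limma-voom called 0, with 0.401% and 3.55% of all genes. Dnajb9, a co-chaperone of BiP, was at 13.3, 18.3 and 19 CPM at 8 months and 34.6, 22.1 and 28.4 CPM at 12 months in injured libraries.

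Replicates of intact neurons differed more than those of injured neurons. The spread within groups, on the log2(CPM + 1) scale, was larger in intact libraries for 36 of 39 members (92.3%) and for 89.7% of all genes, with median SDs of 0.67 and 0.30 over members. In the main fit the same estimate of spread serves all groups. Its p-values may therefore be too small between intact groups and too large between injured groups. The first injured replicate at 8 months was the highest of its group for 22 of 39 members (56.4%), beside 39.04% of all genes. In it Ppp1r15a was at 56.5 CPM against 16.7 and 15.8 CPM in the other replicates. Herpud1 was at 47.7 against 19.9 and 18.8 CPM, and Atf5 at 21 against 5.49 and 6.83 CPM. The same replicate was the lowest of its group for the injury marker Atf3, at 79.2 against 396 and 265 CPM. Sprr1a, at or below 0.652 CPM in intact libraries, was at 60.5 in it against 687 and 357 CPM. Its spike-in share was 11.6% against 2.67% and 2.30%. The part of these differences in its member levels was not tested. The second intact replicate at 8 months was the highest of its group for 21 members (53.8%), beside 31.9% of all genes.

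In single cells levels were pooled per group as CPM outside the dominant feature, with exact 95% Poisson intervals that cover counting error only. No animal is named for a cell, so each group is 1 sample and no test was made. A cell held 0 to 22890735 such counts, and 1 injured cell at 1 year held none. Spike-ins were added in quantity at 1 month only (70.8% and 55.4% of pooled counts in intact and injured cells), and so the ages were not compared. Members were described as past 2-fold on pooled CPM with 1 CPM added. At 1 month 8 of 38 members above 1 CPM were past 2-fold, against 23.3% of all genes, and at 1 year 3 of 38, against 25.7%. The median log2 ratio of injured over intact cells was 0.32 over members and -0.07 over all genes at 1 month, and 0.27 and 0.04 at 1 year.

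**Figure D4:**
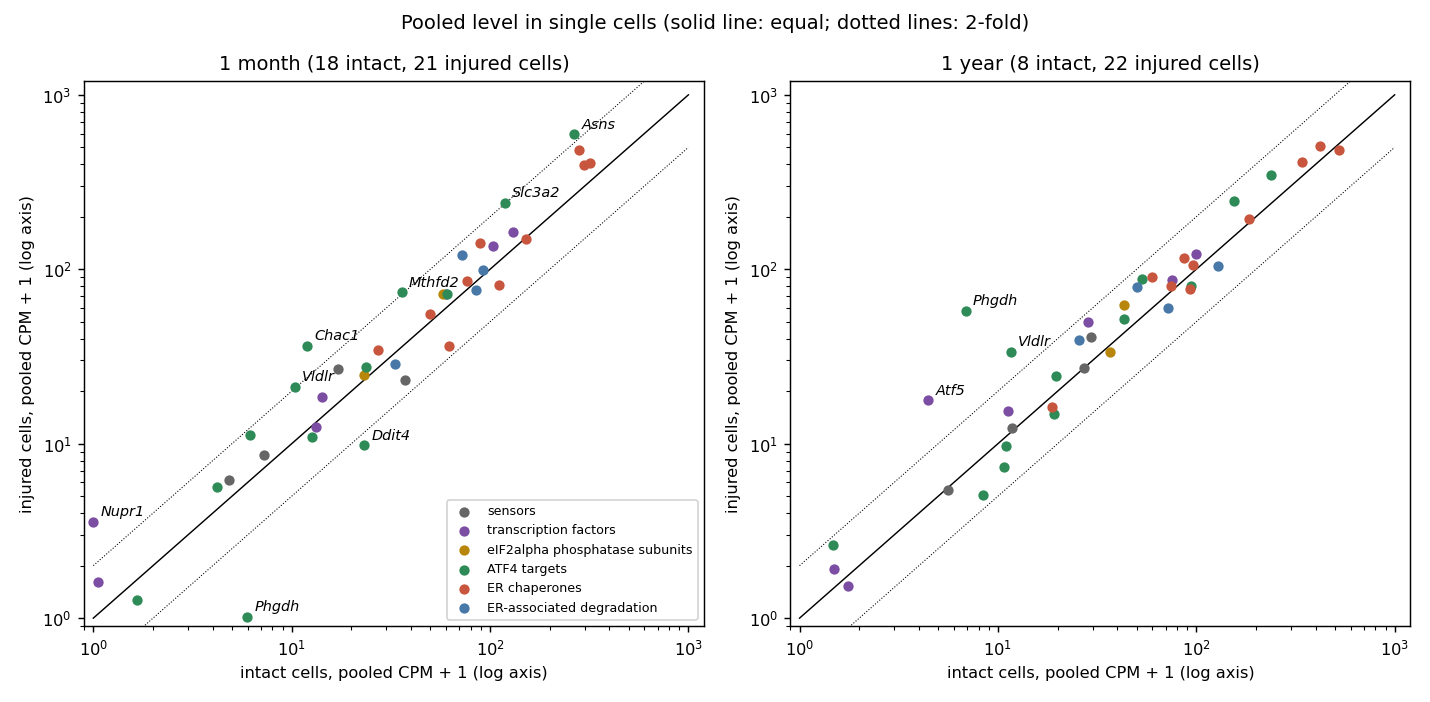
Pooled CPM + 1 of the 40 genes in injured against intact single cells at 1 month (left) and 1 year (right) on log axes, coloured by role, with dotted lines at 2-fold. Genes past 2-fold are named: Nupr1, Chac1, Asns, Mthfd2, Slc3a2 and Vldlr are higher and Ddit4 and Phgdh lower in injured cells at 1 month, and Atf5, Phgdh and Vldlr are higher at 1 year.

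Past 2-fold at 1 month, all higher genes but Nupr1 were ATF4 targets, and so were both lower genes, Ddit4 and Phgdh. Asns was at 595 CPM (589 to 602) in 21 injured and 265 CPM (260.0 to 271) in 18 intact cells. Over cells with at least 100000 counts, 17 injured and 12 intact, its medians were 451 and 257 CPM. Slc3a2 was at 239.9 and 118 CPM, with medians of 156 and 117 CPM. Mthfd2 was at 73 and 34.9 CPM, with medians of 51.1 and 34.9 CPM. For these 3 genes the typical cell lay the same way as the pool. Chac1 did not follow them, since 69.2% of its counts in injured cells came from 1 cell, and its pooled 35.4 and 11 CPM stood beside medians of 3.21 and 6.34 CPM. Vldlr and Nupr1 likewise had 62.1% and 84.2% of their counts in 1 injured cell, with medians of 0. Ddit4 was lower, at 8.84 and 22.2 CPM, and 59% of its intact counts came from 1 cell.

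At 1 year Asns was at 347 CPM over 22 injured cells and 237 CPM over 8 intact cells, with medians over cells of at least 100000 counts of 213 and 234 CPM, the opposite order. Slc3a2 was at 244 and 153 CPM, with medians of 178 and 126 CPM. Phgdh was at 56.9 CPM (injured) and 5.88 CPM (intact cells), and 80.8% of its injured counts came from 3 of the 21 cells that held any counts. In those 3 cells the 9 satellite glia markers summed to 7855 to 57671 CPM, and in the other 18 to 333 to 27891 CPM, with a median of 1281 CPM; their part in the level of Phgdh was not tested. At 1 month Phgdh had 1 count in all injured cells, and 180 counts in 3 intact cells. Apoe, 1 of the 9 satellite glia markers, was at 19 and 730.2 CPM in the same pools. The sum of the 9 markers is not given there, and their part in the level of Phgdh was not tested. Atf5 and Vldlr had 46.9% and 48.9% of their injured counts in 1 cell.

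Of the transcription factors, Nupr1 was past 2-fold at 1 month (3.57-fold) and Atf5 at 1 year (3.98-fold). The other factors and the 4 sensors were not past 2-fold at either age. Atf4 was at 136 and 102 CPM in injured and intact cells at 1 month, and 86.4 and 74.4 CPM at 1 year. Ddit3 was at 71.2 and 59 CPM at 1 month and 48.6 and 27.5 CPM at 1 year. Xbp1 was at 163 and 129.8 CPM, and 122 and 99.1 CPM. Atf4, Ddit3 and Xbp1 were each higher in injured cells at both ages by less than 2-fold. Eif2ak3 was at 25.9 and 16.1 CPM at 1 month and 26.2 and 26.2 CPM at 1 year. Atf6 was lower in injured cells at 1 month (22.1 and 36.4 CPM) and higher at 1 year (39.7 and 28.5 CPM). Ern1 stayed between 3.83 and 5.20 CPM in the 4 groups.

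No ER chaperone was past 2-fold in single cells at either age. Hspa5 was at 406 CPM (injured) and 317 CPM (intact cells) at 1 month, with medians of 384 and 269 CPM. At 1 year it was at 481 and 521 CPM, with medians of 379.8 and 445 CPM, so that the order differed between ages. Canx was at 397 and 296 CPM at 1 month and 507 and 419 CPM at 1 year. At 1 month Pdia3 was the chaperone furthest above intact cells, at 481 against 279 CPM, and the co-chaperone Dnajc3 the furthest below, at 35.3 against 61.1 CPM. The median log2 ratio was 0.64 over ATF4 targets and 0.25 over ER chaperones at 1 month, and 0.32 and 0.12 at 1 year.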

How the data were processed

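RNA counts of 18 low-input libraries and 69 single cells were analysed, and methylation was left aside. The deposited table holds raw counts per gene, made by the authors with featureCounts 1.5.2 on read pairs, unstranded, over GENCODE vM16 exons and ERCC spike-ins, per the file headers; it also gives exon length (other unit). STAR, Trim Galore, featureCounts, Bismark and mm10 are named in the submitters' processing notes. The 136 RNA samples carry 87 names, 45 of them deposited more than once, and each name is 1 column. Of all columns of values, 0 were left unused. Because counting was unstranded, overlapping genes and pseudogenes are uncertain. Coordinates are those of the deposited table.

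Low-input counts were fitted in R 4.3.3 with edgeR 4.0.16 (filterByExpr, TMM, robust quasi-likelihood, 6 group means over 18 libraries, common BCV 0.543, 12 residual degrees of freedom) and a gene was called if its Benjamini-Hochberg adjusted p was below 0.05 over 14212 genes; tests are two-sided. limma 3.58.1, DESeq2 1.42.0, other scalings, left-out libraries and a replicate block were alternatives. Standard errors were taken from the F statistic. Same-numbered injured and intact libraries deviated together at 1 month (r = 0.206, 0.218 and 0.485 over 1669 genes). They did not at 8 (-0.498, -0.352 and 0.106) or 12 months (-0.0855, -0.0976 and 0.0823). At 1 month intact replicate 1 went with injured replicate 2 (r = 0.21) as much as with injured replicate 1. The other unlike-numbered pairs at 1 month had r of -0.427 to -0.0665. Whether the numbers pair libraries is therefore not known. Poisson intervals cover counting error only, since PCR copies are not independent molecules. Values in every library were given for the sensors Eif2ak3, Ern1 and Atf6, for Atf4, Ddit3, Xbp1 and Hspa5, and for members called in an injury comparison; in comparisons of age, for members called, or else the 3 with the smallest p. Canx, Syvn1, Phgdh, Psat1 and Calr were also given by library after their values were seen, and so were some of the members named for a separation of groups, a library or a cell. Members and lists were chosen with earlier results of these data known.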

Additional observations from a re-analysis of the deposited data

Results flagged for a closer look

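Among the 8 intact single cells at 1 year, 12 of 40 members had 1 cell far above the others (30%), where chance flags about 1 in 20 groups of normally distributed values. The same rule flagged 51.4% of all 26169 genes that varied over these cells and 31.1% of the 14740 with a mean of at least 1 CPM, so the count stands near or below that over all genes. In 6 of these members it was cell 6. How often cell 6 was the high cell over all flagged genes was not counted. There Xbp1 was at 309.7 CPM against 111 CPM in the next cell and a median of 92.2 CPM, Ddit4 at 448 CPM against 142 CPM in the next cell and a median of 43.9 CPM, Slc3a2 at 411 CPM against 172 CPM in the next cell and a median of 126 CPM, Dnajc3 at 212 CPM against 93.8 CPM in the next cell and a median of 76.3 CPM, Ppp1r15a at 122 CPM against 58 CPM in the next cell and a median of 43.6 CPM, and Sdf2l1 at 60.7 CPM against 26.5 CPM in the next cell and a median of 15.8 CPM. These 6 members have different roles in the list, and their number is not read as a trait of that cell. In cell 5 Atf4 was at 149 CPM against 84.2 CPM in the next cell and a median of 65.3 CPM, and Ddit3 at 73.6 CPM against 31.1 CPM in the next cell and a median of 20.7 CPM. In cell 8 Calr was at 205 CPM against 97.3 CPM in the next cell and a median of 74.5 CPM, Creb3l2 at 38.4 CPM against 15.5 CPM in the next cell and a median of 7.11 CPM, and Slc7a11 at 3.20 CPM against 0.735 CPM in the next cell and a median of 0 CPM. In cell 7 Trib3 was at 29.6 CPM against 10.05 CPM in the next cell and a median of 6.39 CPM. Each cell was measured once, so none of these values has a replicate.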

How the results depend on the processing

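Percentages in brackets are the shares of all genes called in the same fit. The count of 0 members called in the averaged injury comparison kept to 0 or 1 with other scalings, tools and corrections, with exceptions. It was 4 without the filter on low counts (6.04%) and 38 with ERCC scaling (94.9%), where the median of all genes shifts by 2.90. DESeq2 and limma-voom called 1 each (10.9% and 8.75%). At 8 months DESeq2 called 1 (3.75%). At 12 months DESeq2 called 2 (8.71%), no filter 3 (3.29%) and ERCC scaling 38 (96.2%). Intact 8 against 1 month gave 1 with DESeq2 (5.92%). Intact 12 against 1 month gave 1 without the filter (1.04%), 2 with DESeq2 (1.89%) and 36 with ERCC scaling (89.9%). Intact 12 against 8 months, 3 in the report (6.69%), gave 6 without the filter, 7 with DESeq2 (15.6%) and 0 with limma-voom. It gave 5 with the dominant share as a covariate, 2 with ERCC scaling (6.09%) and 0 with only its 6 libraries. There limma-voom and the 6-library fit called 0 of all genes. Injured 8 against 1 month gave 1 with limma-voom (3.04%), and injured 12 against 1 month 2 with limma-voom (6.71%) and 3 with only its 6 libraries (4.56%). When single libraries were omitted, calls numbered 0 to 2 for averaged injury, 0 to 1 at 8 months, 0 to 2 at 12 months, 0 to 1 for intact 8 against 1 and 12 against 1 month, 1 to 6 for intact 12 against 8 months, and 0 to 1 for injury by age. Of all genes these fits called 3.84% to 9.92% for averaged injury, 0.184% to 1.60% at 8 months and 0.506% to 7.03% at 12 months. With the replicate number as a block, members called stayed at 0 in each injury comparison and at 3 for intact 12 against 8 months; the block changed no call of a member. The median of the ATF4 targets was 3.20 with ERCC scaling and 0.17 with the covariate, and that of the ER chaperones 2.86 and -0.055. Leaving out libraries gave 0.35 to 0.59 and 0.05 to 0.16. Near 0, signs turned. Ern1 was at 2.67 with ERCC scaling, 0.26 with the block, and -0.19 to 0.60 without single libraries. Atf4 was at -0.0060 with RLE, -0.0018 with DESeq2 and -0.032 with limma-voom, and at -0.093 to 0.14 without single libraries. Ddit3 was at 2.57 with ERCC scaling, Hspa5 at -0.37 with the covariate, and Psat1 in intact 12 against 8 months at -0.12 with ERCC scaling. The cause of these changes was not tested. In single cells both alternatives kept 8 and 3 members past 2-fold. Genes with few counts (Nupr1, Phgdh, Slc7a11, Cebpb) are limited by depth.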
